A study of Mus musculus with 6 samples.

Results

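The BCL2 family decides whether a cell keeps its mitochondrial outer membrane intact, and 10 of its genes were examined in thymic iNKT1 cells of mice with intact or conditionally targeted Tgfbr2, the gene of a TGF-beta receptor chain. The genes were taken by symbol: Bcl2, Bcl2l1, Mcl1, Bcl2l11, Bax, Bak1, Bid, Bad, Pmaip1 and Bbc3. All 10 of these symbols were present among the 17985 genes of the deposited table, and all 10 passed the filter on low values (mean CPM of 1 or more). CPM relates the reads of a gene to the size of its library, so that libraries of different depth can be set side by side. Values for single libraries are given throughout in the order of replicates 1, 2 and 3. iNKT1 cells are invariant natural killer T cells of the subset that depends on the transcription factor T-bet and makes interferon-gamma.

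The study compared 3 Ctrl libraries (genotype Tbx21CreTg;Rosa26-LSL-YFP+/+) with 3 cKO libraries, whose mice carried the Tgfbr2F/F alleles in addition. Both groups therefore carried the Tbx21-driven Cre transgene and the yellow fluorescent reporter, on a C57BL/6 background and with no treatment. Age and sex of the mice are not given in the labels. Cre acts here only in cells that have expressed the Tbx21-driven transgene, and the design text calls the replicates independent without saying whether each was 1 mouse.

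The libraries held between 28832779 and 68092478 reads. Tgfbr2, the targeted gene, was at 449 ± 20.7 CPM over the Ctrl libraries and 274 ± 16.1 CPM over the cKO libraries (SD, n = 3 each), so that 61.0% of the Ctrl level remained (limma adjusted p 0.0207). The labels do not say which stretch of the gene the alleles remove. Both replicate 3 libraries stood apart from the other 4: they listed 4406 and 4590 genes at 0, against at most 5 in any other library. Each group held 1 of them, and replicates 1 and 2 alone were fitted as well. All 10 iNKT1 markers were read in every library, from 33.2 CPM upwards, with a summed level of 8806 to 10676 CPM in Ctrl and 8877 to 12286 CPM in cKO. The sum hides differences of single markers. Xcl1 was at 168, 164 and 212 CPM in Ctrl and 98.5, 85.7 and 90.2 CPM in cKO. Cd3e and Cd3g were also lower in cKO in each same-numbered pair. Tbx21, Il2rb, Klrb1c, Ifng and Cxcr3 were higher in each pair, while Zbtb16 and Nkg7 were mixed. Klrb1c was lowest in Ctrl replicate 2, at 180 CPM. The summed levels of B cell (3 of 5 markers in the table), myeloid (3 of 6) and epithelial and stromal markers (4 of 6) reached at most 12.4 CPM in any library. Csf1r, Col3a1 and Pdgfra were at 0 only in both replicate 3 libraries, and at 0.738 to 4.44 CPM in the other 4. Among erythroid markers only Alas2 was in the table, at no more than 4.13 CPM.

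As background, the family has 3 kinds of protein. The anti-apoptotic members BCL2, BCL-xL (gene Bcl2l1) and MCL1 bind and restrain the others. The effectors BAX and BAK (gene Bak1) form pores in the outer mitochondrial membrane, which lets cytochrome c out and starts the caspase cascade. The BH3-only members BIM (gene Bcl2l11), BID, BAD, NOXA (gene Pmaip1) and PUMA (gene Bbc3) carry stress and growth-factor signals to the other members, either by occupying the anti-apoptotic proteins or by engaging the effectors. In T lineage cells, BCL2 and MCL1 are known to be maintained by cytokines such as IL-7 and IL-15, BCL-xL is known for keeping double-positive thymocytes alive, and BIM for removing lymphocytes that have lost cytokine support.

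None of the 10 genes passed a limma adjusted p of 0.05 between cKO and Ctrl, where 104 of 15691 tested genes did (0.663%). Among the 10, 1 had an unadjusted limma p under 0.05 (6.02% of all tested genes did): Bcl2l1, which had the largest difference on the log2(CPM + 1) scale. In edgeR, which adds no such constant, the low genes Pmaip1 (-0.48) and Bak1 (0.45) had log2 fold changes of similar size to that of Bcl2l1 (0.43). In limma with the replicate number as a block, 2 of the 10 had an unadjusted p under 0.05, Bcl2l1 and Mcl1, as did 12.6% of all tested genes. edgeR's quasi-likelihood test, limma-voom and DESeq2 without the replicate number called none of the 10 at an adjusted p of 0.05 either (0.255%, 0.395% and 4.36% of the genes they tested), although DESeq2 gave no adjusted p to Bak1 and Pmaip1. None was past 0.05 in the authors' deposited table, where 144 of 17985 genes were (0.801%). Log2 fold changes of the 10, all on the log2(CPM + 1) scale, ran from -0.27 to 0.38 with a median of 0.038, against a median of -0.038 over all tested genes. Deviations of same-numbered libraries from their group means correlated at 0.855, 0.687 and 0.924 for replicates 1 to 3. Ctrl replicate 2 correlated at 0.718 with cKO replicate 1, so the pairing of replicates 1 and 2 is assumed. With the replicate number as a block in the limma fit none of the 10 passed either (451 genes, 2.87% of those tested, did), but Bcl2l1 passed when the block was joined with TMM scaling or used in edgeR. Bulk libraries cannot tell apart fewer cells expressing a gene and less of its RNA per cell.

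**Figure D1:**
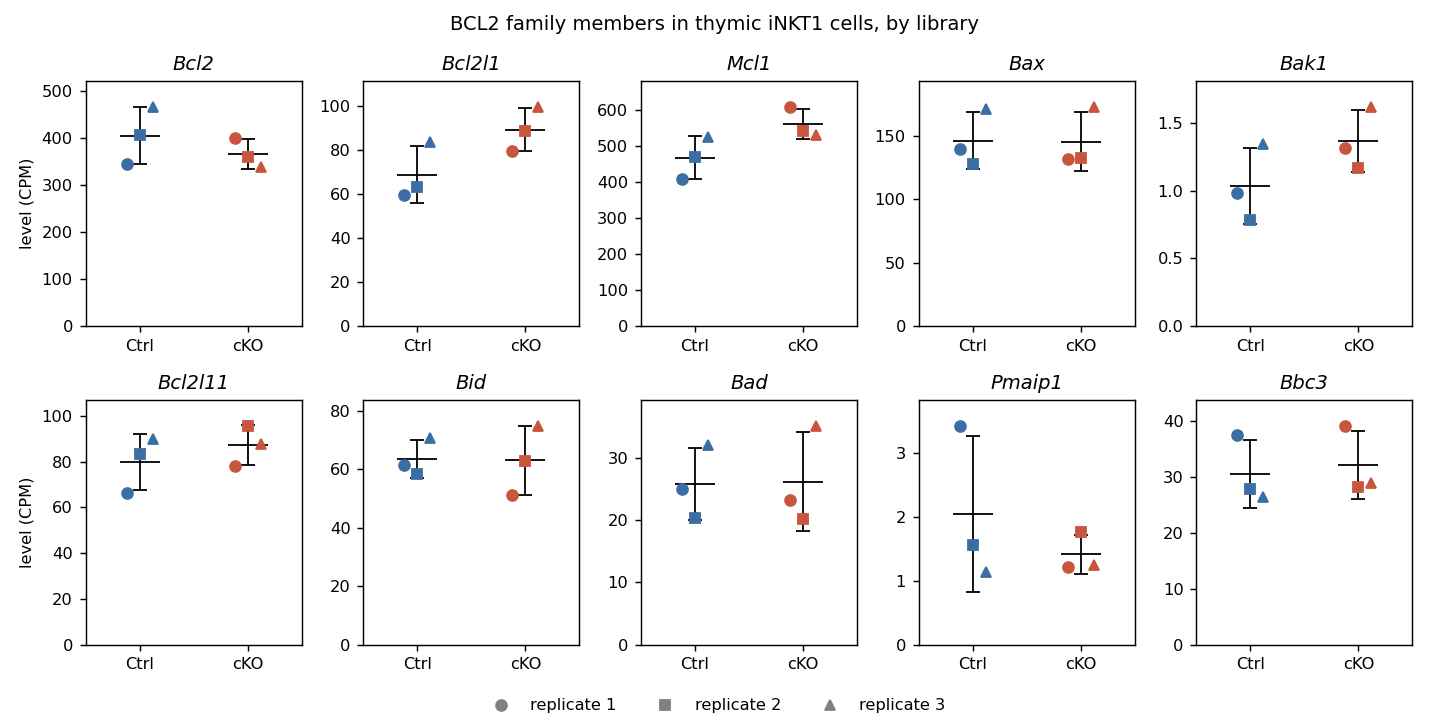
Level of each of the 10 genes in CPM (vertical axis, from 0) in the 3 Ctrl and 3 cKO libraries. Points are libraries, with a symbol for each replicate number; horizontal lines are group means and bars are SD (n = 3). Only for Mcl1 do the 2 groups not overlap, with 527 CPM in the highest Ctrl and 531 CPM in the lowest cKO library.

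Among the anti-apoptotic genes, Bcl2l1 and Mcl1 had positive differences and Bcl2 a negative one, and none passed the adjusted threshold. Bcl2l1 (ENSMUSG00000007659, chromosome 2, 152780668 to 152831728, minus strand, mm10) encodes BCL-xL. It was at 59.5, 63.3 and 83.6 CPM in the Ctrl libraries, against 79.8, 88.8 and 99.5 CPM in the cKO libraries. Each cKO library was above the Ctrl library of its own number, and the groups overlapped only through Ctrl replicate 3 and cKO replicate 1. The mean was 68.8 ± 13.0 CPM over the Ctrl libraries and 89.4 ± 9.87 CPM over the cKO libraries (SD, n = 3 each). This gave a log2 fold change of 0.38 (SE 0.15, unadjusted 95% interval 0.017 to 0.75, limma adjusted p 0.782).

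With the replicate block the SE of the Bcl2l1 difference was 0.093 and its limma adjusted p was 0.0852. It was 0.0438 with the block and TMM scaling (513 genes, 3.29%, passed there) and 0.0450 in edgeR with the block (469 genes, 2.99%). In replicates 1 and 2 alone the log2 fold change was 0.45, with a limma adjusted p of 0.0758 (296 genes, 1.72%) and of 0.00249 with the block (897 genes, 5.23%). Here and below, the block fit of replicates 1 and 2 has few residual degrees of freedom, so its p-values rest largely on moderation over all genes. Leaving out any 1 library gave log2 fold changes from 0.29 to 0.53 and limma adjusted p values from 0.381 to 0.99995 without the block. Double-positive thymocytes are a cell type in which Bcl2l1 is known to be high. Their markers (5 of 7 in the table) summed to 18.6, 16.3 and 7.95 CPM in the Ctrl libraries, against 25.2, 17.5 and 12.3 CPM in the cKO libraries, so that their sum too was higher in each same-numbered pair, with no marker at 0. Single markers differed: Arpp21 was lower in cKO in replicates 2 and 3 and Dntt in replicate 2. Their part in the Bcl2l1 difference was not tested. In the authors' deposited table Bcl2l1 had a log2 fold change of 0.44, a p of 0.0419 and an adjusted p of 0.99998.

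Mcl1 (ENSMUSG00000038612, chromosome 3, 95658721 to 95663176, plus strand) encodes a short-lived survival protein that lymphocytes need at most stages. It was at 408, 472 and 527 CPM in the Ctrl libraries, against 609, 544 and 531 CPM in the cKO libraries. It was the only 1 of the 10 whose groups did not overlap upwards, as 3.89% of all tested genes did, and its log2 difference was 0.58 between the replicate 1 libraries, 0.20 between the replicate 2 libraries and 0.011 between the replicate 3 libraries. The log2 fold change was 0.26 (SE 0.12, 95% interval -0.012 to 0.54, limma adjusted p 0.878, and 0.353 with the block). Without Ctrl replicate 1, its lowest library, it was 0.17. In replicates 1 and 2 alone it was 0.39, with a limma adjusted p of 0.0970 and of 0.000989 with the block. Mcl1 is also known as an early response gene. The list of immediate early and stress genes (7 of 8 in the table, none at 0) summed to 156 to 213 CPM in Ctrl and 207 to 275 CPM in cKO. The sum was higher in cKO in each same-numbered pair, and most of it came from Egr1 and Dusp1. Fos was lower in cKO in replicates 1 and 2 and Hspa1b in replicate 3, while the other listed genes were higher in each pair. The part of this list in the Mcl1 difference was not tested.

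Bcl2 (ENSMUSG00000057329, chromosome 1, 106538178 to 106714274, minus strand) is the founding member of the family and is known to be induced as thymocytes mature. It was at 344, 405 and 465 CPM in the Ctrl libraries, against 400.0, 359 and 339 CPM in the cKO libraries. The groups overlapped, and cKO was higher in replicate 1 but lower in replicates 2 and 3. The log2 fold change was -0.14 (SE 0.13, 95% interval -0.45 to 0.17, limma adjusted p 0.99998). In replicates 1 and 2 alone it was 0.022, so its sign depended on replicate 3. As a fold, the interval runs from 0.733 to 1.13 times Ctrl. An antisense gene, D630008O14Rik, shares 6.09% of the exon bases of Bcl2.

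**Figure D2:**
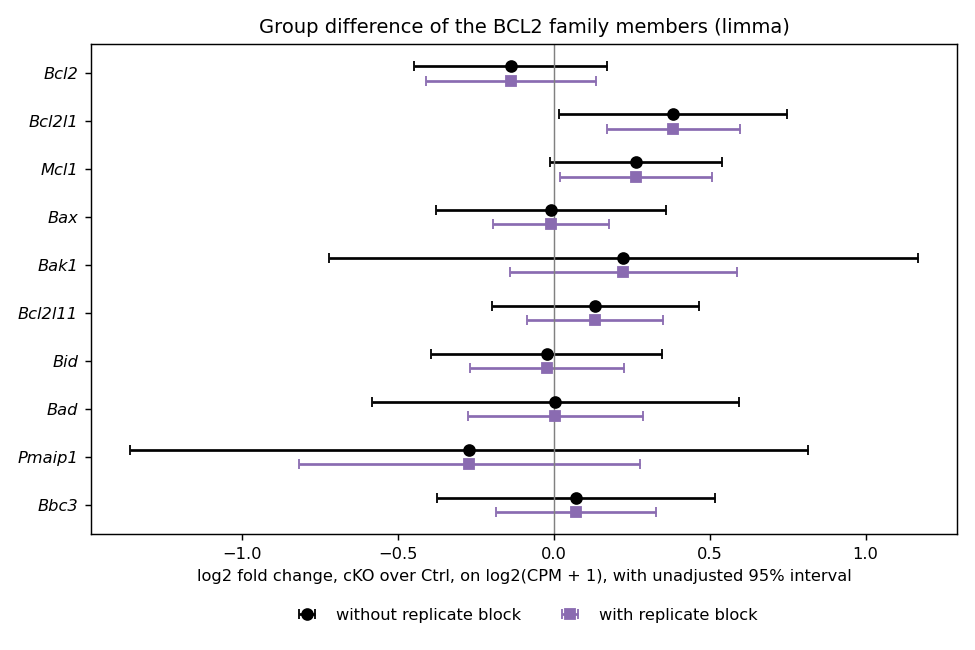
Log2 fold change (cKO over Ctrl, horizontal axis) of each gene with its unadjusted 95% interval, from limma without the replicate block (circles) and with it (squares). Without the block only the Bcl2l1 interval, 0.017 to 0.75, lies wholly above 0; with the block that of Mcl1, 0.021 to 0.51, does so too.

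Upstream sequence is shown for Bcl2l1 and Mcl1 because these genes had the smallest unadjusted limma p of the 10. Of the 10 genes, 9 were matched by symbol to 15 RefSeq promoter windows (GRCm38.p6, the assembly that mm10 names; 250 bases before to 50 after an annotated start), and Pmaip1 was not used. The 250 bases before the outermost Bcl2l1 start (chr2:152831729-152831978, minus strand) and before the Mcl1 start (chr3:95658471-95658720, plus strand), printed 5′ to 3′, hold no annotated exon of the gene itself. Both were searched on both strands for CAGAC, the core of the SMAD-binding element, and GTAAACA, a FOXO-binding core, which do not overlap each other in any printed stretch. Neither stretch holds a match, so no letter is in capitals.
Bcl2l1: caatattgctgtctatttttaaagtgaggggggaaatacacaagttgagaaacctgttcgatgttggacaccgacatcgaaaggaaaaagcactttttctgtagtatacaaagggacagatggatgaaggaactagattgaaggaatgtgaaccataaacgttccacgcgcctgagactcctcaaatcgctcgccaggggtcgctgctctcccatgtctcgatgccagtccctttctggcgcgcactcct
Mcl1: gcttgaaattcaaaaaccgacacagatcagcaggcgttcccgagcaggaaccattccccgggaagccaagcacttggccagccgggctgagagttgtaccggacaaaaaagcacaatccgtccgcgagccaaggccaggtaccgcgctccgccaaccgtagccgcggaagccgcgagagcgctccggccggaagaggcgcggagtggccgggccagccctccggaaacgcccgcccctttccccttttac
Another Bcl2l1 window, at an inner start, held 2 CAGAC matches. CAGAC was found in 6 of the 15 windows, in 5 of the 9 genes, while 49.6% of all 32851 windows hold at least 1. These matches describe letters only.

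Within a library, the RNA levels of the anti-apoptotic genes can be set against each other without any scaling between libraries. Protein was not measured, so these ratios do not give the balance of the proteins. The log2 ratio of Bcl2 over Bcl2l1 was 2.53, 2.68 and 2.48 in Ctrl and 2.33, 2.01 and 1.77 in cKO replicates 1 to 3. The groups did not overlap, with a mean difference of -0.53 (exact two-sided permutation p 0.1, the smallest that 3 against 3 libraries allow, and 0.4 after adjustment over the 4 ratios tested). The ratio of Bcl2 over Mcl1 was added after the values had been seen and is given without a test. Its log2 value was -0.25, -0.22 and -0.18 in Ctrl and -0.61, -0.60 and -0.65 in cKO. The mean was -0.22 ± 0.034 in Ctrl and -0.62 ± 0.028 in cKO (SD, n = 3 each), and the difference of -0.40 was -0.36, -0.38 and -0.47 in replicates 1, 2 and 3. Leaving out any 1 library moved that difference only between -0.42 and -0.38. Bcl2 and Mcl1 thus varied together across libraries of a group, with the cKO libraries at a lower proportion of Bcl2. Of the 45 possible ratios between 2 of the 10 genes, 7 had groups that did not overlap. No such share was computed for ratios of other genes. The 11% of all tested genes without overlap is for the CPM of single genes, which is a different measure. Among the 45, Bcl2 over Mcl1 had both the smallest spread within groups and the widest gap between them. The ratio was picked from these same values, so this rank gives it no further support. Bcl2 and Mcl1 also had the highest CPM of the 10 genes, while ratios with Bak1 or Pmaip1 rest on 24 to 115 reads.

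Levels of different genes were compared per kilobase of merged exons in GENCODE M21. On that scale, the share of Bcl2 in the sum of the 3 anti-apoptotic genes was 22.5% ± 0.349 in Ctrl and 17.8% ± 0.514 in cKO (SD, n = 3 each), between 22.1% and 22.8% in Ctrl libraries and between 17.3% and 18.3% in cKO libraries. Mcl1 made up 69.9% ± 0.727 and 73.4% ± 0.973, again without overlap, and Bcl2l1 7.61% ± 0.567 and 8.77% ± 1.44, with overlap. With the exon lengths of the deposited table the shares of Bcl2 were 26.2% ± 0.420 and 21.1% ± 0.435 and those of Mcl1 70.4% ± 0.576 and 74.9% ± 0.364 in Ctrl and cKO (SD, n = 3 each), again without overlap. Those of Bcl2l1 were then 3.37% ± 0.261 and 3.94% ± 0.679, so that its share, though not its overlap, depended on the lengths. All these shares were computed after the values had been seen and were not tested. As Bcl2l1 was a small part of the sum, the shares of Bcl2 and Mcl1 largely restate the ratio of Bcl2 over Mcl1. The lack of overlap under either set of lengths is therefore not separate evidence.

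**Figure D3:**
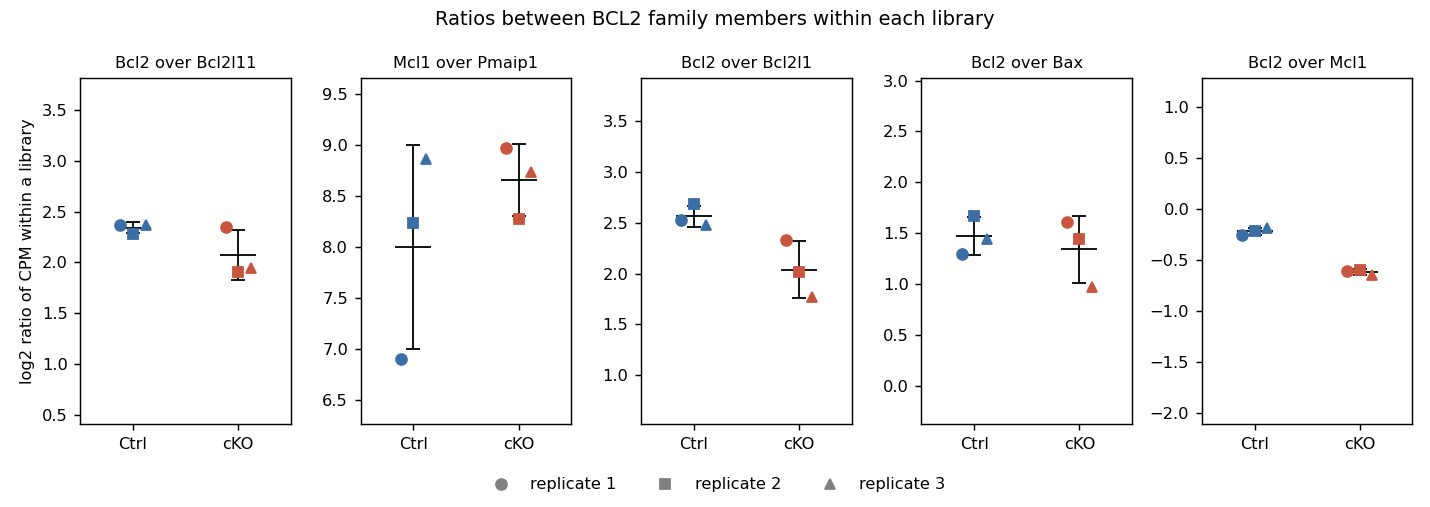
Log2 ratio of the CPM of 2 genes within each library (vertical axes, all spanning the same width), for 5 ratios in the 3 Ctrl and 3 cKO libraries. Points are libraries, lines are means and bars are SD (n = 3). Bcl2 over Mcl1 sits between -0.25 and -0.18 in Ctrl and between -0.65 and -0.60 in cKO, while Bcl2 over Bcl2l11 and Bcl2 over Bax overlap.

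The effector genes lay at opposite ends of the family: per kilobase, Bax was among the 3 highest members and Bak1 the lowest in Ctrl, and neither passed the test between genotypes. Bax (ENSMUSG00000003873, chromosome 7, 45461695 to 45466898, minus strand) was at 139.7, 128 and 171 CPM in the Ctrl libraries, against 131, 132 and 173 CPM in the cKO libraries. In both groups replicate 3 was the highest library, and the log2 fold change was -0.0082 (SE 0.15, 95% interval -0.38 to 0.36, limma adjusted p 0.99998), or 0.035 under TMM scaling. With the block the interval was -0.19 to 0.18, or 0.874 to 1.13 times Ctrl as a fold. The log2 ratio of Bcl2 over Bax was 1.47 ± 0.186 in Ctrl and 1.34 ± 0.329 in cKO (SD, n = 3 each), with overlap (difference -0.13, exact two-sided permutation p 0.6, adjusted 0.6), and without cKO replicate 3 the difference was 0.054. Gm45808, annotated on the same strand, shares 12.2% of the exon bases of Bax. How reads on these shared bases were counted is not given in the sources used here.

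Bak1 (ENSMUSG00000057789, chromosome 17, 27019810 to 27029009, minus strand) was near the filter, at 0.981, 0.780 and 1.34 CPM in the Ctrl libraries, against 1.32, 1.17 and 1.62 CPM in the cKO libraries. These levels rest on 24 to 110 reads. Each cKO library was above its same-numbered Ctrl library, but the groups overlapped and the interval was wide (log2 fold change 0.22, 95% interval -0.72 to 1.17, limma adjusted p 0.99998). In GENCODE M21, 25.5% of the exon bases of Bak1 also belong to exons of Ggnbp1 on the other strand. Whether reads were counted by strand is not given in the sources used here, so the Bak1 level is uncertain to that extent.

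Among the 5 BH3-only genes, 3 had a positive and 2 a negative log2 fold change, none past a threshold, and the sign of Bid turned to positive (0.021) under TMM scaling. Bcl2l11 (ENSMUSG00000027381, chromosome 2, 128126038 to 128162547, plus strand), the gene of BIM, was at 66.4, 83.3 and 89.9 CPM in the Ctrl libraries, against 78.3, 95.7 and 87.8 CPM in the cKO libraries. It was higher in cKO in replicates 1 and 2 and not in replicate 3, with a log2 fold change of 0.13 (SE 0.14, 95% interval -0.20 to 0.46, limma adjusted p 0.99998). Without Ctrl replicate 1, its lowest library, the value was 0.0069. The log2 RNA ratio of Bcl2 over Bcl2l11, whose proteins are a restrainer and its main BH3-only partner in lymphocytes, was 2.37, 2.28 and 2.37 in Ctrl. In cKO it was 2.35, 1.91 and 1.95, so that replicate 1 lay within the Ctrl range and the other cKO libraries below it (difference -0.27, exact two-sided permutation p 0.2, adjusted 0.4).

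Bbc3 (ENSMUSG00000002083, chromosome 7, 16309616 to 16318205, plus strand), the gene of PUMA and a known p53 target, was at 37.5, 27.8 and 26.4 CPM in the Ctrl libraries, against 39.2, 28.3 and 29.0 CPM in the cKO libraries. In both groups replicate 1 was the highest library, and the log2 fold change was 0.071 (SE 0.19, limma adjusted p 0.99998). Bcl2l1, Mcl1, Bak1 and Bbc3 were the 4 of 10 genes whose cKO library exceeded the Ctrl library in every pair of equal number, as happened for 11.5% of all tested genes. None of the 10 had it lower in every pair, as happened for 18.5%.

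Bcl2l11 and Bbc3 were the only matched members with a GTAAACA match, which 3.65% of all 32851 windows hold, and both are known targets of FOXO factors. The 250 bases before the outer Bcl2l11 start (chr2:128125788-128126037, plus strand) and before an inner Bbc3 start (chr7:16310011-16310260, plus strand) are printed 5′ to 3′ to show these matches. Capitals mark GTAAACA or its reverse complement TGTTTAC, and CAGAC or its reverse complement GTCTG.
Bcl2l11: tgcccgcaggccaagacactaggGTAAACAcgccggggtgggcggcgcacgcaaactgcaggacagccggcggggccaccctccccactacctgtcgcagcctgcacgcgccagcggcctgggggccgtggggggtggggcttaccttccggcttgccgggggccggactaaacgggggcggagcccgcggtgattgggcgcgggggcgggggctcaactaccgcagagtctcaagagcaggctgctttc
Bbc3: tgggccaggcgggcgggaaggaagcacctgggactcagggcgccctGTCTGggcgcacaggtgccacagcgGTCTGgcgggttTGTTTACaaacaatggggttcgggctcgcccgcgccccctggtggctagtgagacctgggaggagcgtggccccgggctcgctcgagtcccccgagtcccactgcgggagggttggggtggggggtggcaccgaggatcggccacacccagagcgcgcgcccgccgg
Bcl2l11 carries 1 GTAAACA, and Bbc3 carries 1 TGTTTAC and 2 GTCTG. As for the other windows, this describes letters and not binding.

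Bid, Bad and Pmaip1 completed the BH3-only group. Bid (ENSMUSG00000004446, chromosome 6, 120891930 to 120916853, minus strand), whose protein links death receptors to mitochondria once caspase-8 cuts it, was at 61.3, 58.2 and 70.6 CPM in the Ctrl libraries, against 51.2, 62.8 and 74.8 CPM in the cKO libraries. Bad (ENSMUSG00000024959, chromosome 19, 6941861 to 6951898, plus strand), whose protein is switched off by growth-factor kinases, was at 25.0, 20.4 and 32.1 CPM in the Ctrl libraries, against 23.3, 20.2 and 35.2 CPM in the cKO libraries. For these genes the groups overlapped, with log2 fold changes of -0.022 (95% interval -0.39 to 0.35) and 0.0054 (-0.58 to 0.59) and a limma adjusted p of 0.99998 each. Exons of Bid share 17.7% of their bases with Bcl2l13, and those of Bad 20.5% with Gpr137, on the opposite strand in each case.

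Pmaip1 (ENSMUSG00000024521, chromosome 18, 66458604 to 66465550, plus strand), the gene of NOXA, which binds MCL1 with preference, was at 3.42, 1.56 and 1.13 CPM in the Ctrl libraries, against 1.21, 1.76 and 1.25 CPM in the cKO libraries, on 35 to 115 reads. A single library, Ctrl replicate 1, was apart from the other 5. The log2 fold change was -0.27 (SE 0.46, limma adjusted p 0.99998), and 0.036 without that library. The log2 ratio of Mcl1 over Pmaip1 followed the same library, at 6.90 in Ctrl replicate 1 and between 8.24 and 8.97 elsewhere (exact two-sided permutation p 0.4, adjusted 0.533), and its mean difference was 0.66 with that library and 0.11 without it.

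Per kilobase of merged exons the levels in Ctrl ran, from high to low, in the order Mcl1, Bax, Bcl2, Bid, Bcl2l1, Bbc3, Bad, Bcl2l11, Pmaip1 and Bak1. Mcl1 was at 119 to 154 CPM per kilobase, Bax at 81.0 to 109 and Bcl2 at 37.5 to 50.8 in Ctrl libraries, and none of these ranges met its neighbour. From Bid (16.4 to 19.9) through Bcl2l1, Bbc3 and Bad to Bcl2l11 (8.27 to 11.2) each range overlapped the next. Pmaip1 and Bak1 lay at or under 1.25 CPM per kilobase and overlapped each other. In cKO the first 3 places were the same, and Bcl2l1 (17.4 to 21.7 CPM per kilobase) stood before Bid (14.4 to 21.1), with overlap. This order depends on the lengths used. With the exon lengths given in the deposited table, an alternative added after the values were seen, Bax came first in Ctrl (147 to 197 CPM per kilobase) and Mcl1 second (94.0 to 121). Bcl2l1 moved from place 5 to place 7 (4.49 to 6.31), while Bcl2 at place 3, Bid at place 4 and the last 3 places were as before.

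The wider apoptosis pathway was covered by 5 lists with 67 genes, of which 60 were in the table and 59 were tested. None of the 59 passed a limma adjusted p of 0.05 without the block; 6 had an unadjusted limma p under 0.05, or 3 in each direction, against 6.02% of all tested genes. Without the block edgeR and limma-voom also called none (0.255% and 0.395% of all tested genes). With the block 3 passed, against 2.87% of all tested genes: Tnfsf10 lower, and Pim2 and Il2rb higher, in cKO. DESeq2, which gave an adjusted p to 56 of the 59, called Tnfsf10, Pim2 and Pim1 (4.36% of the genes it tested). In replicates 1 and 2 alone limma called Myc (1.72% of all tested genes), and with the block 6 genes (5.23%): Tnfsf10, Fasl, Myc and Il7r lower, and Pim2 and Il2rb higher. Il7r, the gene of the IL-7 receptor chain, is named here after its values were seen. The median log2 fold change of the 59 was 0.019.

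In the death receptor list the named ligand genes, Tnfsf10 and Fasl, had negative and the named receptor genes, Fas and Tnfrsf1a, positive differences. These genes were named for the smallest unadjusted limma p of the list. Its other genes, the receptor gene Tnfrsf10b among them, are not given singly, so this split is not a result for the whole list. Of 9 tested genes 5 had a positive and 4 a negative log2 fold change, with a median of 0.18. Tnfsf10, the gene of the death ligand TRAIL, was at 131, 131 and 121 CPM in the Ctrl libraries, against 105, 92.3 and 85.8 CPM in the cKO libraries, a log2 fold change of -0.44 (SE 0.087 with the block; limma adjusted p 0.0351 with the block and 0.239 without it). No Tnfsf10 library of one group reached the other. With the block and TMM scaling its limma adjusted p was 0.0525. Fasl, the gene of Fas ligand, was at 292 ± 22.8 CPM over the Ctrl libraries and 229.6 ± 24.8 CPM over the cKO libraries (SD, n = 3 each; limma adjusted p 0.538, and 0.0668 with the block). The limma fit of replicates 1 and 2 with the block gave Fasl an adjusted p of 0.00280. The receptor genes Fas and Tnfrsf1a had differences of the other sign that did not pass, with log2 fold changes of 0.32 and 0.27; with the block the unadjusted intervals were 0.049 to 0.58 and 0.072 to 0.47. Of the 9 tested genes of the list, 5 had groups that did not overlap, as did 11% of all tested genes.

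Among 22 tested upstream survival and stress regulators, 14 had a positive and 8 a negative log2 fold change, with a median of 0.014. Pim2, a kinase gene that STAT5 is known to induce and whose protein phosphorylates BAD, was at 88.1, 86.1 and 93.3 CPM in the Ctrl libraries, against 119, 111 and 144 CPM in the cKO libraries. Its log2 fold change was 0.47 (SE 0.091 with the block; limma adjusted p 0.0312 with the block and 0.285 without it). It also passed with the block and TMM scaling (0.0232) and in edgeR with the block (0.0247). Il2rb, the receptor chain shared by IL-2 and IL-15, one of the iNKT1 markers above and named here after its values were seen, was at 2357, 2897 and 3521 CPM in the Ctrl libraries, against 2948, 3784 and 4383 CPM in the cKO libraries. Its groups overlapped, but its pairwise log2 differences were 0.32, 0.39 and 0.32, and it passed with the block (limma adjusted p 0.0166) and not without it (0.99998). Pim1 and Mdm2 were at 33.4 ± 2.58 and 118 ± 9.05 CPM in Ctrl and at 42.0 ± 2.64 and 132 ± 2.77 CPM in cKO (SD, n = 3 each), and Myc at 329 ± 30.7 and 248 ± 41.5 CPM. None of Pim1, Mdm2 and Myc passed in limma, with the block (adjusted p 0.268, 0.542 and 0.0601) or without it, over all 6 libraries. The log2 fold change of Myc in replicates 1 and 2 alone was -0.50, with a limma adjusted p of 0.0278 without and 9.19e-06 with the block. That block fit has few residual degrees of freedom.

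The 3 remaining lists, downstream of or beside the 10 genes, had no call with or without the block. Of 13 tested caspase and apoptosome genes 7 had a positive log2 fold change, with a median of 0.00012. Casp8, the initiator caspase of death receptors, was at 251 ± 12.3 CPM over the Ctrl libraries and 297 ± 33.0 CPM over the cKO libraries (SD, n = 3 each; limma adjusted p 0.268 with the block), and Htra2 and Aifm1 had log2 fold changes of -0.28 and -0.10. Of 6 tested inhibitors of caspases and of their activation 5 had a positive log2 fold change, with a median of 0.052; Cflar, Birc3, Xiap and Birc6 were between -0.18 and 0.097. Of the 16 other family genes listed 10 were in the table and 9 were tested, with a median of -0.055; Bcl2l13, Bcl2l12, Bnip3 and Bnip3l were between -0.16 and 0.072.

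**Figure D4:**
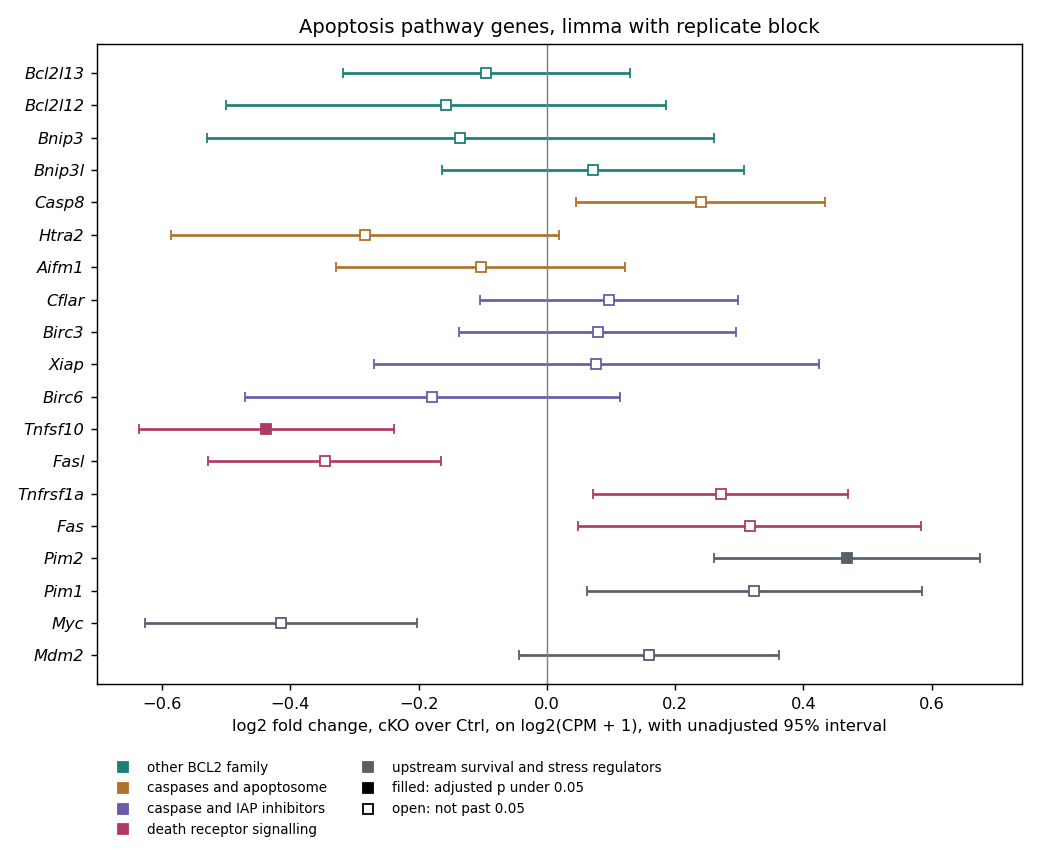
Log2 fold change (cKO over Ctrl, horizontal axis) with its unadjusted 95% interval, from limma with the replicate block, for the genes named from the 5 pathway lists (colours), without Il2rb and Il7r. Filled squares passed an adjusted p of 0.05: Tnfsf10 at -0.44 and Pim2 at 0.47. All other genes shown are drawn open and did not pass.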

How the data were processed

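Bulk RNA of 6 libraries was measured: per the labels' protocols, Nugen Ovation Ultralow libraries of kit-purified total RNA were read on a NextSeq500. The submitters' processing notes name Trimmomatic 0.33, STAR 2.5.2, HTSeq 0.6.1 and edgeR with the build mm10, without settings. Gene positions are the deposited table's.

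The deposited table holds CPM per library, computed by the authors from read counts. All values were whole multiples of 1 read (within 0.01 read), so reads were recovered for count tests. The authors' comparison, per the file headers, comes as log2 values (fold change and mean CPM), p-values, adjusted and not, and a likelihood-ratio score; its other columns, such as start and end positions and marks of called genes, were made by the authors too. Its columns named WT and KO were taken as Ctrl and cKO.

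The test was limma 3.58.1 (R 4.3.3) on log2(CPM + 1), for 15691 genes whose mean CPM was 1 or more, with trend and robust moderation and Benjamini-Hochberg adjustment over all of them; this scale understates changes of low genes. edgeR 4.0.16 and DESeq2 1.42.0 on recovered reads were alternatives. The scripts were tested on simulated data. P-values rest on these libraries only, and those of limma on a variance of each gene that is moderated over all tested genes. Deviations of same-numbered libraries from their group means correlated at 0.855, 0.687 and 0.924 for replicates 1 to 3, so the numbers were taken to pair the libraries. Ctrl replicate 2 correlated at 0.718 with cKO replicate 1, so for replicates 1 and 2 this pairing is assumed. The labels state no pairing. Members and lists were chosen with earlier results of these data known. All 10 members were named, and from each of 5 pathway lists the 4 tested genes with the smallest unadjusted p, of which 1 is not reported here; Il2rb and Il7r were added after their values were seen. Protein sequences were not used here.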

Additional observations from a re-analysis of the deposited data

How the results depend on the processing

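Bcl2l1, Mcl1 and Bcl2l11 had a positive log2 fold change in all 15 alternative fits, and Bak1 in the 14 that held it. Each of these genes was also positive in all 6 fits that left out 1 library. All of these fits drew on the same libraries. The count of the 10 genes called was 0 in 12 of the 15 and in those 6. It was 1 (Bcl2l1) under the replicate block with TMM scaling and in edgeR with the replicate block, and 2 (Bcl2l1 and Mcl1) in replicates 1 and 2 with the replicate block; the replicate block changed no other call of the 10. That last fit has few residual degrees of freedom. The cause of each change was not tested.

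Against 104 genes called over the whole table, 451 passed with the replicate block, 513 with the block and TMM scaling, 469 in edgeR with the block, 40 in edgeR, 552 in DESeq2, 62 in limma-voom, and 296 and 897 in replicates 1 and 2 without and with the block. Leaving out 1 library gave 14 to 97: 22, 14 and 28 without Ctrl replicates 1, 2 and 3, and 71, 22 and 97 without cKO replicates 1, 2 and 3. Of the 59 pathway genes, against 0, 3 passed with the replicate block, 2 with the block and TMM scaling, 2 in edgeR with the block and 3 in DESeq2. In replicates 1 and 2 it was 1 (Myc, lower) without the block and 6 with it.

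Values near 0 changed sign. Bcl2 was 0.022 in replicates 1 and 2, with and without the block, and Bad -0.057 there. Bax was 0.035 with TMM scaling, blocked or not, 0.019 under upper quartile scaling, 0.041 under DESeq2-type size factors, 0.036 in edgeR with the block, 0.046 in edgeR, 0.051 in DESeq2 and 0.037 in limma-voom. Bid was 0.021, 0.0051, 0.027, 0.024, 0.046, 0.050 and 0.037 in these same fits. Over the fits that left out 1 library Bax ran from -0.14 to 0.11, Bid from -0.15 to 0.12, Bad from -0.22 to 0.17, Pmaip1 from -0.49 to 0.036 and Bbc3 from -0.075 to 0.22. TMM scaling moved the median of all genes by 0.030 on the log2 scale. Depth limits Bak1 and Pmaip1, at 24 to 115 reads. With a minimum mean of 5 CPM both were left out.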
